A study of Mus musculus with 3 samples.

Results

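The genes described here make, modify and carry heparan sulfate. They were chosen by name, as a list of 36 genes covering the enzymes in the order in which they act on the chain and the glypican and syndecan core proteins. Of the 36, 35 had a probe set annotated with their symbol alone, out of 19938 genes measured in all, and each of the 35 had 1 probe set. Ndst1 was not analysed here. The samples were 3 preparations of ureteric duct cells from CD-1 mice, collected 10.5 days post coitum at Theiler stage 18, of unrecorded sex, which carried the transgene Tg(Hoxb7-EGFP)33Cos. In this transgene the Hoxb7 promoter drives green fluorescent protein in the nephric duct and its derivatives. Each sample came from 1 duct, which was dissected, treated with trypsin for 5 minutes and sorted for fluorescence, and its RNA was amplified in 1 round and hybridised to 1 Affymetrix array. The samples form a single group, so the question the design allows is which genes the sorted cells express, and no contrast between conditions exists. The labels do not state whether different embryos gave the samples, and the p-values below cover no more than the variation among these 3, part or all of which may be technical.

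Heparan sulfate is a sulfated sugar chain built in the Golgi on a few core proteins and displayed on the cell surface and in the matrix, where it binds growth factors and serves as a co-receptor for them. A xylosyltransferase starts the chain, the exostosin enzymes lengthen it, and N-deacetylase/N-sulfotransferases, an epimerase and O-sulfotransferases then modify it in patches that set which ligands bind. In the kidney the chain is known to be needed for outgrowth and branching of the ureteric bud: mice without the 2-O-sulfotransferase Hs2st1 or the epimerase Glce lack kidneys, and loss of the glypican Gpc3 causes overgrowth and dysplasia of the collecting system.

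A gene was said to pass, or to lie above background, when its log2 signal exceeded a cutoff set by genes of sensory neurons, namely the 1212 probe sets of odorant and vomeronasal receptors. The cutoff was their 95th percentile on each array, 5.69, 5.73 and 5.70 on arrays 1, 2 and 3, and the test was a one-sided limma fit with Benjamini-Hochberg adjustment over 21789 probe sets at 0.05. Of all genes, 11203 (56.2%) passed. With the 99th percentile as the cutoff, 6.38 on average, 36.1% passed. When the 95th percentile cutoff was raised by 1 log2 unit, 28.4% did. Signals are given as mean ± SD (n = 3) or as the value on each array. A gene said to have a single value held exactly the same deposited value on all 3 arrays, as 50.8% of all genes did. For these genes no spread can be given and the p-value is too small. Arrays 1 and 2 each stood apart in markers of other cells: red cell markers averaged 6.84, 5.24 and 5.24 log2 units on arrays 1, 2 and 3, and endothelial markers 7.92, 7.20 and 7.91. Without array 1, 2 or 3 the number of heparan sulfate genes that passed, 23 with all arrays, was 24, 22 or 21. Probe sets differ in affinity, so a signal is compared with background and not with the signal of another gene.

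Of the 35 measured heparan sulfate genes, 23 passed (65.7%, against 56.2% of all genes), 11 passed at the 99th percentile (31.4% against 36.1%) and 7 with the raised cutoff (20.0% against 28.4%). The share was thus above that of all genes at the first cutoff and below it at the other two, and the median signal was 6.13, beside 6.04 over all genes. Of the 10 core proteins 9 passed, and of the 25 enzymes 14 did. The 7 genes that passed with every cutoff and every other setting tried were the chain polymerases Ext1 and Ext2, the endosulfatase Sulf2, the glypicans Gpc2, Gpc3 and Gpc6, and the syndecan Sdc4. In RNA of bulk samples, fewer cells of a type and less RNA per cell cannot be told apart.

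**Figure D1:**
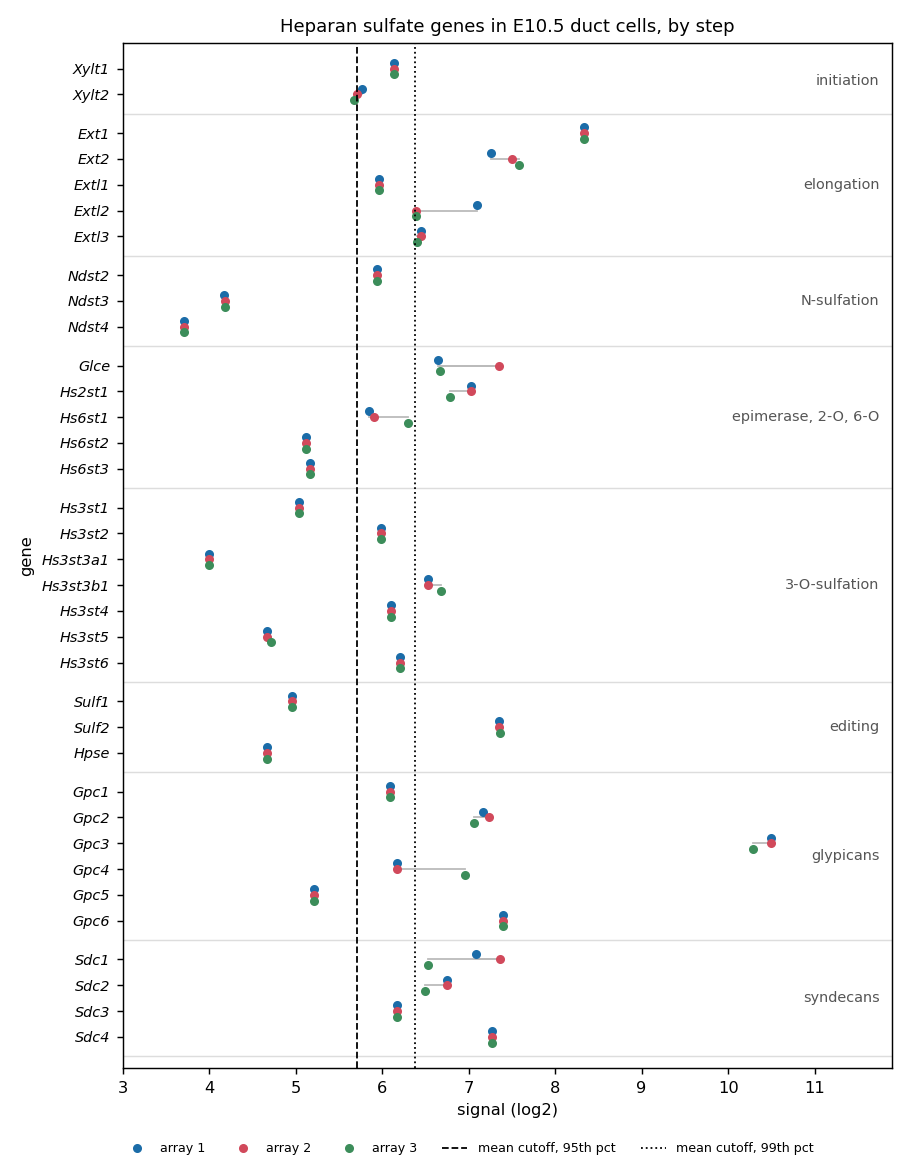
Signal (log2, horizontal axis) of the 35 measured heparan sulfate genes on each of the 3 arrays (coloured points, grey lines join the lowest and highest), grouped by step. The dashed and dotted lines are the mean cutoffs at the 95th and 99th percentile of receptor probe sets (5.71 and 6.38), and Gpc3 lies farthest to the right, at 10.29 to 10.49.

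Glypicans are core proteins tethered to the outer membrane by a lipid anchor. Of the 6, 5 passed, and 3 did so at the 99th percentile. Gpc3, which binds hedgehog and Wnt ligands and restrains growth, read 10.49, 10.49 and 10.29 on arrays 1, 2 and 3, which is 4.72 log2 units above the mean cutoff (SE 0.05, limma adjusted p = 8.6e-06). All 3 arrays lay far above both cutoffs. Gpc6 had a single value of 7.39, and no other probe set in the table held it. Gpc2, best known from developing neurons, read 7.17, 7.23 and 7.07 (adjusted p = 4.8e-05, limma). These 3 genes also passed with the cutoff raised by 1 log2 unit.

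Gpc4 read 6.17 on arrays 1 and 2 and 6.96 on array 3. It passed (limma adjusted p = 0.035), but the call rests on few data. The call was lost at the 99th percentile, with the raised cutoff, without array 2 and with olfactory receptors alone as background. The Gpc4 value on arrays 1 and 2 was held by 72 and 79 other probe sets there, among them that of Sdc3. Gpc1 had a single value of 6.09, and its call ended at the 99th percentile. Gpc5 had a single value of 5.21, which lay below the cutoff on all 3 arrays and was held by 99 other probe sets. Gpc4 and Gpc3 are next to each other on the X chromosome with 0 coding genes between them, and both passed. Gpc5 and Gpc6 are likewise neighbours on chromosome 14, and of this pair Gpc6 passed and Gpc5 did not.

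The promoters of the glypicans with an entry in the RefSeq table (GRCm38.p6) are shown because this family had members on both sides of the cutoff: Gpc2, Gpc3 and Gpc4 passed and Gpc5 did not. That of Ndst3 is shown as a member far below background, and it had the fewest CpGs of the 26 genes with a window. It does not stand for the genes that did not pass: Hs3st3a1, with a lower signal of 4.00, had 20 CpGs in a window not shown. Each is the 250 bases before the annotated start, 5′ to 3′ on the gene's strand, with CpG dinucleotides in capitals. The windows lie at chr5:138279938-138280187 (minus strand) for Gpc2, chrX:52613975-52614224 (minus strand) for Gpc3, chrX:52164924-52165173 (minus strand) for Gpc4, chr14:115091965-115092214 (plus strand) for Gpc5 and chr3:123619451-123619700 (minus strand) for Ndst3.
Gpc2: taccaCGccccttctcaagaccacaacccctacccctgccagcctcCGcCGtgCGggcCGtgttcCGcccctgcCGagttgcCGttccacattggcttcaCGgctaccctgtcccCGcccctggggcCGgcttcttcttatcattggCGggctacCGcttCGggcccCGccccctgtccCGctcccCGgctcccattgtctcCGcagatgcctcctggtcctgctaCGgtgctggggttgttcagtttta
Gpc3: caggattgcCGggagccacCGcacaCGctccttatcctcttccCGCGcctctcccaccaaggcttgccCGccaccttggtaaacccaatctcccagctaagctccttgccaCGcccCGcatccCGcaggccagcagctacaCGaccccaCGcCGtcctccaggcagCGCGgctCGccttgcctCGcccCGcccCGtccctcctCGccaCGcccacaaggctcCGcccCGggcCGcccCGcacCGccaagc
Gpc4: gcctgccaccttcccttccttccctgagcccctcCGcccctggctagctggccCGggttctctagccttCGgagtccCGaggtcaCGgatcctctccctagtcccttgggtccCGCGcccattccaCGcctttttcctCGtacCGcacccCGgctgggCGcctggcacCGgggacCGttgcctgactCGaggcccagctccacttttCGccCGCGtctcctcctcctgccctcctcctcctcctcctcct
Gpc5: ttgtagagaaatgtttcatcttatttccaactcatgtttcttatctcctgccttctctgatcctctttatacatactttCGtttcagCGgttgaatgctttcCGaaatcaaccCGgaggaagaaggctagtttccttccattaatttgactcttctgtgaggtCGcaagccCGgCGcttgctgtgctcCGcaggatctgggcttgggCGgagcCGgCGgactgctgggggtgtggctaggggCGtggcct
Ndst3: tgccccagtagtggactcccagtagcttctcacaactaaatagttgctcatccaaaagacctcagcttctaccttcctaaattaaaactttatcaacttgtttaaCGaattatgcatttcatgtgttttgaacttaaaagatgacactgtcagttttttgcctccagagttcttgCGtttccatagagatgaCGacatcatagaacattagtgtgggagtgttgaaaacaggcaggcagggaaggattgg

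The Gpc3 window held 25 CpGs, more than 89.3% of the 32851 windows in the table. The Gpc2 window held 19, the Gpc4 window 18, the Gpc5 window 12 and the Ndst3 window 3. Windows were found for 26 of the 35 genes, and where a gene had several the one with the most CpGs was used. The median was 19 CpGs over the 16 genes that passed and 17.5 over the 10 that did not. Over all genes with a window the medians were 17 for those that passed and 4 for those that did not. Among the heparan sulfate genes that did not pass, Hs6st3 had 36 CpGs and a signal of 5.16. A GC box, searched as GGGCGG and its reverse complement CCGCCC, which contains a CpG, was found in 13 of the 16 windows of genes that passed (81.3%) and in 6 of the 10 others (60.0%). With 1 window per gene chosen in the same way, it was found in 48.0% of all 15614 genes with a window, 61.6% of those that passed and 29.7% of those that did not, and in 32.7% of all windows in the table. The letters of a TATA box, TATAAA or the reverse complement TTTATA, were searched anywhere in the window, with no set distance to the start. They were found in 1 of the 26 chosen windows, that of Gpc5, as TTTATA. The windows with fewer CpGs, which were not used, also held 1 match for Sulf2, which passed, and 1 for Hs6st2, which did not. The chosen windows gave 10.7% over all genes, 5.9% over those that passed and 17.3% over those that did not, and all windows in the table gave 12.4%. These counts describe letters in the annotated windows, and the start site used in duct cells was not measured.

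Syndecans span the membrane and link the matrix and growth factors to the cytoskeleton. All 4 passed, and all but Sdc3 passed at the 99th percentile. Sdc4, the syndecan of focal adhesions, had a single value of 7.27 that no other probe set held, and it alone of the 4 passed with the raised cutoff. Sdc1, the syndecan typical of epithelia, read 7.09, 7.36 and 6.53 (limma adjusted p = 0.0057), each above the cutoff and with the widest range of all 35 genes, 0.83 log2 units. Sdc2 read 6.75, 6.75 and 6.49 (limma adjusted p = 0.00073). Sdc3, mainly known from the nervous system, had a single value of 6.17 that 54 other probe sets also held on all arrays.

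Chains are started by the xylosyltransferases Xylt1 and Xylt2, which add xylose to a serine of the core protein. Xylt1 had a single value of 6.13 and passed, though not at the 99th percentile. Xylt2 read 5.76, 5.71 and 5.67 against cutoffs of 5.69, 5.73 and 5.70, and so lay above background on array 1 alone (limma adjusted p = 0.66). It is the closest to the cutoff of the 12 heparan sulfate genes that did not pass.

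All 5 exostosin genes passed. Ext1 and Ext2 form the polymerase that adds glucuronic acid and N-acetylglucosamine in turn. Ext1 had a single value of 8.33, unshared with any other probe set, and Ext2 read 7.26, 7.50 and 7.58 (limma adjusted p = 0.00017). Both stayed above background under every setting. The other 3 exostosins passed at the 95th percentile but not at the 99th. Extl3, which adds the first N-acetylglucosamine and so commits the chain to heparan sulfate, read 6.44, 6.44 and 6.40. Extl2 read 7.09 on array 1 and 6.39 on arrays 2 and 3, a range of 0.70 log2 units (limma adjusted p = 0.015). Extl1 had a single value of 5.96 that 24 other probe sets shared, and its call also ended without array 3.

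**Figure D2:**
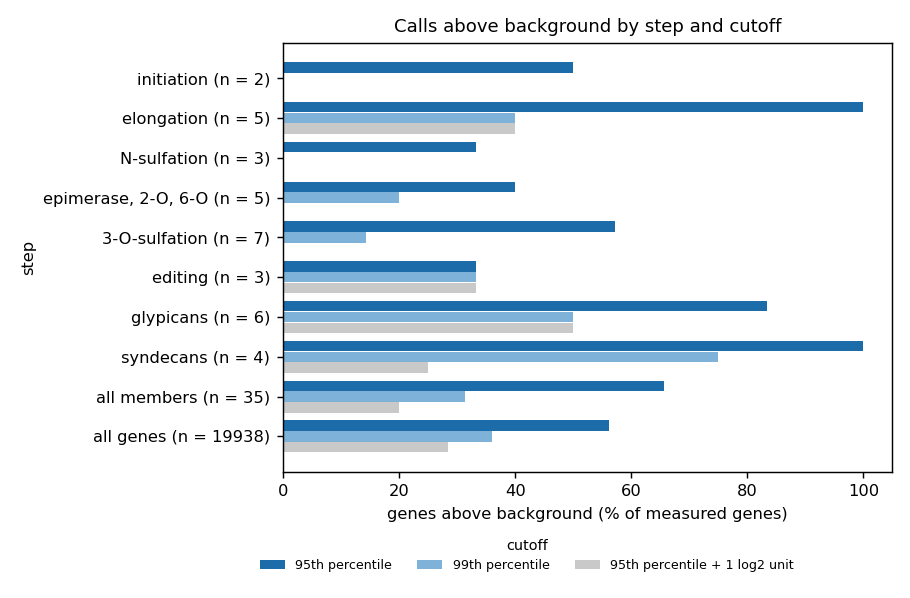
Share of measured genes above background (%, horizontal axis) for each step, for all heparan sulfate genes and for all genes, at the 95th percentile cutoff (dark blue), the 99th (light blue) and the 95th raised by 1 log2 unit (grey). At the raised cutoff calls remain in elongation (2 of 5), editing (1 of 3), glypicans (3 of 6) and syndecans (1 of 4), and none in the other 4 steps.

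N-deacetylase/N-sulfotransferases replace acetyl groups with sulfate and open the chain to the later steps. Of the 3 measured, Ndst2 passed with a single value of 5.94. This was 0.23 log2 units above the mean cutoff, the smallest distance among the 23 heparan sulfate genes that passed, and 68 other probe sets held the same value. The call was lost at the 99th percentile and with the raised cutoff. It was also lost without array 3, in a fit that gave all genes one common spread. Ndst3 read 4.17, 4.19 and 4.19, and Ndst4 had a single value of 3.71. Both genes, known mainly from the brain, stood at -1.53 and -1.99 log2 units relative to the mean cutoff and passed under no setting.

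Glce converts glucuronic to iduronic acid, and Hs2st1 sulfates mainly that iduronic acid. Glce read 6.64, 7.36 and 6.67, so array 2 stood 0.70 log2 units above the mean of the others (limma adjusted p = 0.0059). It lay above the 99th percentile cutoff on every array, but with its SD of 0.40 it did not pass there. Hs2st1 read 7.03, 7.03 and 6.79, with all arrays above both cutoffs, and it passed at both (limma adjusted p = 0.00032 at the 95th). Neither passed with the raised cutoff.

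None of the 3 genes for 6-O-sulfotransferases, whose product is bound by fibroblast growth factors and their receptors, passed. Hs6st1 read 5.85, 5.91 and 6.30. It lay above the cutoff on all 3 arrays, and with an SD of 0.24 its limma adjusted p was 0.061. The Hs6st1 call therefore depends on the setting: it passed without array 1, at the 90th percentile, at the 30th percentile of all probe sets, and with the spread of single-value genes taken from other genes. Hs6st2, at 5.12, and Hs6st3, at 5.16, each had a single value below the cutoff, shared with 109 and 103 other probe sets. Both passed when the 30th percentile of all probe sets was the cutoff.

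The 3-O-sulfotransferases add the rarest modification, used for antithrombin binding and by a few other ligands. Of the 7, 4 passed, and at the 99th percentile only Hs3st3b1 did, at 6.53, 6.53 and 6.68 (limma adjusted p = 0.0003). Hs3st6 at 6.20, Hs3st4 at 6.10 and Hs3st2 at 5.99 each had a single value within 0.50 log2 units of the mean cutoff, which 1, 3 and 3 other probe sets shared. Hs3st1, the enzyme for the antithrombin site, had a single value of 5.04 and did not pass. Hs3st5 read 4.67, 4.67 and 4.72, and Hs3st3a1 had a single value of 4.00. Hs3st3b1 and Hs3st3a1, close paralogs on chromosome 11 with 1 coding gene between them, lay on opposite sides of the cutoff. Cross-hybridisation between such paralogs was not tested.

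Chains are edited after synthesis by the endosulfatases Sulf1 and Sulf2, which remove 6-O-sulfates outside the cell, and by heparanase, which cuts the chain. Sulf2 read 7.36, 7.35 and 7.36, the smallest range among the 16 heparan sulfate genes with more than 1 value, and passed under every setting (limma adjusted p = 6.6e-06). Sulf1 had a single value of 4.95 and Hpse one of 4.67, both below the cutoff on all arrays. Sulf1 shared its value with 69 other probe sets and Hpse with 103, and neither passed under any setting.

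Of the 19 genes with a single value, 15 shared it with at least 1 other probe set on all 3 arrays. These were 8 of the 12 genes that did not pass, 7 of the 12 that passed at the 95th percentile but not at the 99th, and 0 of the 11 that passed at the 99th. Only single-value genes could enter this count, and these groups held 8, 8 and 3 of them. Genes with more than 1 value also shared values on single arrays. Hs2st1, which passed at the 99th percentile, shared its 7.03 with 22 other probe sets on array 1 and 25 on array 2. The shares of all genes within these groups were not analysed here. Over all genes, 41.3% had a single value that another probe set also held, against 42.9% here. Pathway and marker genes named below shared single values on all arrays too, among them Ids with 40 other probe sets, Cx3cr1 with 32 and Chst14 with 24. Wnt9b shared its value with 12, while Uxs1 and B3galt6 shared theirs with none. How specific such a value is to its gene was not tested.

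Among the 16 genes with more than 1 value, 4 had a range above 0.5 log2 units: Sdc1, Gpc4, Glce and Extl2. The array that departed differed between them. It was array 1 for Extl2 (higher), array 2 for Glce (higher) and array 3 for Gpc4 (higher), and Sdc1 was highest on array 2 and lowest on array 3. Sulf2, with a range of 0.01 log2 units, was the only one whose lowest value lay on array 2 alone. In others, such as Extl2 and Gpc4, array 2 tied with another array for the lowest value. Relative to the mean of the other arrays, array 2 stood at -0.35 log2 units for Extl2 and -0.39 for Gpc4. It stood above 0.2 for 2 genes, Glce (0.70) and Sdc1 (0.55). Of the endothelial markers, 13 of 14 were lowest on array 2. Array 2 minus the mean of the other arrays averaged -0.72 log2 units over that list, 0.02 over the 35 heparan sulfate genes and 0.00087 over all genes. For the 19 heparan sulfate genes with a single value this difference is fixed at 0, while 0 endothelial markers had a single value. The averages of the lists are therefore not alike. Genes of the response to dissociation were lowest on array 2 in 6 of 9 cases, with a mean difference of -0.28. Extl2, like the globins, was highest on array 1, and the part of red cell RNA in its value was not tested.

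**Figure D3:**
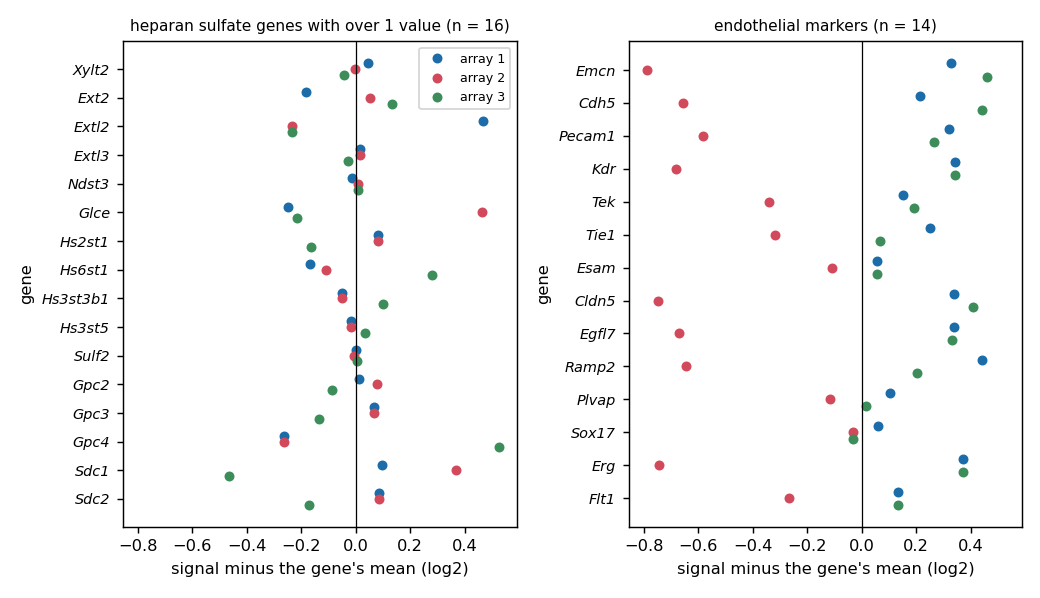
Signal minus the gene's mean over arrays (log2, horizontal axis) for the 16 heparan sulfate genes with more than 1 value (left) and the 14 endothelial markers (right), 1 point for each array. Array 2 (red) is the single lowest array for 13 of 14 endothelial markers and, among the heparan sulfate genes, for Sulf2, whose values span 0.01 log2 units. Ties for the lowest value, as in Extl2 and Gpc4, are not counted.

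Markers of cell types were measured to see which cells the sorted samples held. Over all genes 56.2% passed. The lists stood at 100% (duct), 92.9% (endothelial), 77.8% (dissociation), 60.0% (neural), 36.4% (mesenchyme and stroma alike), 16.7% (red cells) and 12.5% (macrophages). A share near or below that of all genes does not by itself show whether a cell type was present. All 12 duct markers passed, with Calb1 at 11.71 ± 0.03, Gata3 at 9.43 ± 0.20 and, lowest, Wnt9b at 6.96. Endothelial markers passed in 13 of 14 cases, with Emcn at 10.07 ± 0.69, Cdh5 at 9.10 ± 0.58 and Pecam1 at 7.50 ± 0.51, and Sox17 at 5.80 ± 0.05 did not. Mesenchyme markers passed in 4 of 11 cases (Cited1 at 7.71 ± 0.17 and Sall1, also a duct gene, at 6.99), with Six2 at 5.07 and Meox2 at 4.47 below the cutoff. Stromal markers passed in 4 of 11 (Vim at 9.71 ± 0.40, Col1a1 at 6.75, and Lum below the cutoff at 3.23). In the macrophage list 1 of 8 passed (2 without array 1 or array 3), Cx3cr1 at 6.54, while Cd68 at 6.31 ± 0.51, Ptprc at 4.16 and Adgre1 at 4.09 did not. Red cell markers passed in 1 of 6 (2 without array 1, 3 without array 3). The embryonic globins Hbb-y, at 10.02, 5.31 and 5.45 on arrays 1, 2 and 3, and Hba-x, at 8.89, 5.97 and 5.84, read highest on array 1, lay near the cutoff on the others and failed the test, as did Rhag at 3.97. Neural markers passed in 3 of 5 (Erbb3 at 6.96 and Ngfr at 6.51 ± 0.09, with Elavl4 at 4.13 below), and genes of the response to dissociation in 7 of 9 (Jun at 8.80 ± 0.48 and Egr1 at 7.57 ± 0.57, with Atf3 at 5.58 below). The part of endothelial RNA in the heparan sulfate signals was not tested.

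Of 52 measured genes that supply, share or break down the pathway, 32 passed (61.5% against 56.2% of all genes). At the 99th percentile 21 did so (40.4% against 36.1%). The counts of each list below stand beside the same shares of all genes. Enzymes of the linker that joins chain to protein passed in 3 of 5 cases. The xylose kinase Fam20b read 8.08, 7.76 and 8.08, the glucuronyltransferase B3gat3 7.37, 7.16 and 6.97, and B3galt6 a single 5.95, while the xylose phosphatase Pxylp1, at 5.11 ± 0.03, did not pass. Supply of the sulfate donor and nucleotide sugars passed in 7 of 9. Uxs1, which makes UDP-xylose, had a single value of 8.17, Ugdh, which makes UDP-glucuronic acid, one of 7.45, and the UDP-N-acetylglucosamine transporter Slc35a3 read 7.39 ± 0.18. Of the pair of enzymes that make the sulfate donor, Papss2 did not pass at 5.31, and Papss1, named after its value was seen, passed at 6.25 ± 0.08.

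Other proteins that can carry heparan sulfate passed in 4 of 9 cases (44.4%, against 56.2% of all genes). Each of the 4 also passed at the 99th percentile (44.4%, against 36.1%). Perlecan, encoded by Hspg2, read 7.74, 7.41 and 7.74. It was among the 12 of 52 pathway genes that were lowest on array 2 alone, as were Fam20b and Gipc1. The share of all genes lowest on array 2 alone was not analysed here, so the count has no background to be set against. Agrin (Agrn) had a single value of 7.40 and collagen XVIII (Col18a1) one of 6.93, both basement membrane proteins. On all arrays 7 and 12 other probe sets held these values. The testican gene Spock3 was lowest at 4.22. The list of lysosomal breakdown, which also holds the inactive heparanase homolog Hpse2, passed in 6 of 8 cases and in 3 without array 3. At the 99th percentile 1 passed, Gusb at 6.69 ± 0.04. Hgsnat at 6.39 ± 0.04 and Ids at 5.99 passed at the 95th, and Hpse2 at 5.01 did not.

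The chondroitin and dermatan sulfate branch, which uses the same linker, had 8 of 16 genes above background, 5 of them at the stricter cutoff too. Its polymerase gene Chsy1 read 7.34, 7.34 and 7.45, the initiating Csgalnact2 6.64, 6.99 and 6.99, and the dermatan 4-O-sulfotransferase gene Chst14 a single 6.56, while Chst3 at 5.04 ± 0.05 did not pass. Of 5 genes, namely 4 partners of the syndecan tail and the glypican-binding Notum, 4 passed. Syntenin (Sdcbp), which binds the syndecan tail, read 9.92, 9.89 and 10.21, and the scaffold kinase Cask 8.49, 8.49 and 8.42. Gipc1 read 7.19, 6.44 and 7.16, and Notum, a secreted carboxylesterase that removes the lipid from Wnt proteins and binds glypicans, had a single value of 5.50 below the cutoff.

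**Figure D4:**
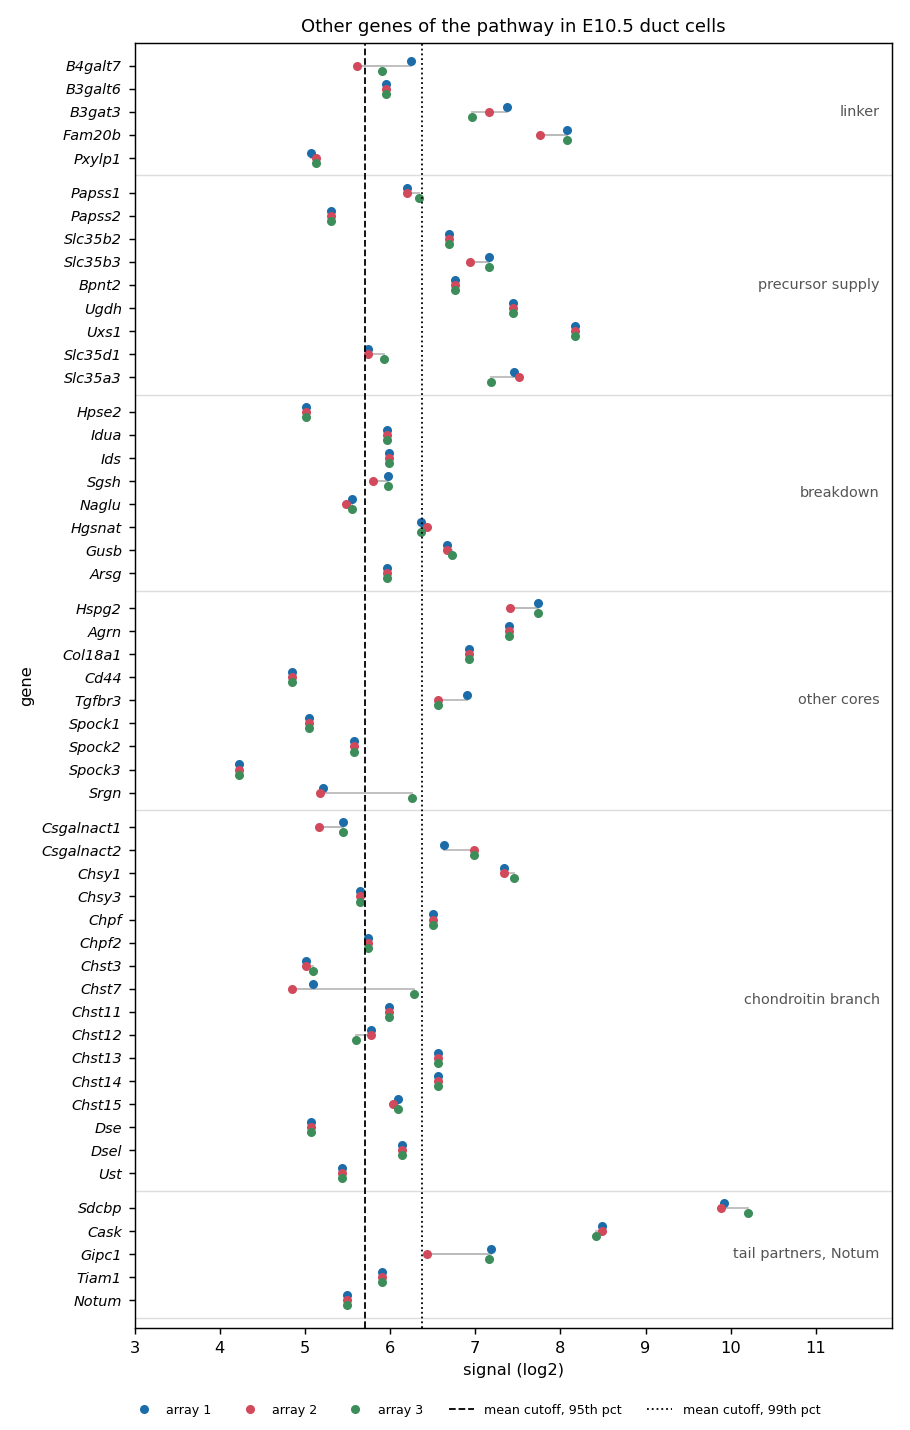
Signal (log2, horizontal axis) of the 52 other pathway genes measured, on each of the 3 arrays (coloured points), grouped by function, with the mean cutoffs at the 95th (dashed) and 99th (dotted) percentile of receptor probe sets. Sdcbp, at 9.89 to 10.21, lies farthest to the right, and 32 of the 52 passed the test at the 95th percentile.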

How the data were processed

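The authors deposited 35557 probe set values per array, read here as log2 from their range. The submitters' processing notes list Affymetrix Expression Console; version, algorithm and filters: not given in the sources used here. The 3 columns were used as deposited. The platform annotation gave 21789 probe sets a single symbol, and these were kept. Where a gene had several, the probe set of highest mean stood for it. With limma 3.58.1 under R 4.3.3, an intercept was fitted to each value minus its array's cutoff, with empirical Bayes (1.13 prior degrees of freedom). The fit was run on simulated data with a common spread and no tied values, so that run does not cover the single-value genes. The members and lists were chosen with earlier results of these data known. Every measured member is named. Pathway lists contribute their 3 highest genes by mean and their lowest, and marker lists their 2 highest, their lowest and defining markers. A planned description of core protein sequences was not analysed here. The number of arrays limits the precision. Alternatives covered the cutoff, its probe sets, the choice of probe set, the spread, and each array left out.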

Additional observations from a re-analysis of the deposited data

How the results depend on the processing

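The count of genes above background moved mainly with the cutoff. At the 99th percentile it was 7190 over all genes and 11 over the 35 heparan sulfate genes. By step these were initiation 0, elongation 2, N-sulfation 0, epimerase with 2-O- and 6-O-sulfation 1, 3-O-sulfation 1, editing 1, glypicans 3 and syndecans 3. Outside them breakdown had 1, chondroitin 5, mesenchyme 2 and red cells 0. A cutoff 1 log2 unit higher gave 5653 and 7. By step these were initiation 0, elongation 2, N-sulfation 0, epimerase with 2-O- and 6-O-sulfation 0, 3-O-sulfation 0, editing 1, glypicans 3 and syndecans 1. Outside them precursor supply had 4, breakdown 0, chondroitin 1, tail partners 2, mesenchyme 2, stroma 1, macrophages 0, red cells 0, neural 1 and stress 3. Apart from these breakdowns by step, lists are named only where their counts moved by the largest factors, and those not named are not at 0. At the 90th percentile initiation, macrophages and red cells each had 2. Taking the 30th percentile over all probe sets, they were 2, 3 and 3, epimerase with 2-O- and 6-O-sulfation 5, linker 5, chondroitin 14, mesenchyme 7 and stroma 7. Giving single-value probe sets the spread of others took macrophages to 2. Leaving out 1 array gave 10363 to 11007 over all genes, 21 to 24 over the heparan sulfate genes, 0 to 1 for N-sulfation, 3 to 6 for breakdown, 1 to 2 for macrophages and 1 to 3 for red cells. The fit without array 3 assumed one common spread, so its counts ignore the spread of each gene. Of the heparan sulfate genes, 7 passed under every setting and 7 under none, the latter being Ndst3, Ndst4, Hs3st1, Hs3st3a1, Hs3st5, Sulf1 and Hpse. Centring each array on its median left 4 genes with a range above 0.5 log2 units. No paired analysis was possible because there is only 1 group. Signal over background limits what can be said of genes near the cutoff.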
